A study of Saccharomyces cerevisiae with 24 samples.

Results

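The 10 genes described here carry the zinc transport and zinc regulation of baker's yeast. They are *ZRT1*, *ZRT2*, *ZRT3*, *ZAP1*, *ZRC1*, *COT1* and *IZH1* to *IZH4*, taken by name from expression tables of 6427 genes, and all 10 were found. RNA came from *Saccharomyces cerevisiae* BY4741, a MATa haploid laboratory strain that lacks *LEU2* and *URA3* and is also listed with deletions at *MET15* and *HIS3*. The laser groups held cells irradiated for 30 s with a long-wavelength UV laser and then moved to rich medium (YEPD), with 3 libraries each at 0, 15, 30 and 60 min (Laser T0, T15, T30 and T60). The control groups held cells that were moved to the same medium without irradiation, again with 3 libraries at each time. Each of 3 cultures, suspended in cold buffered saline, was divided into a laser and a control portion. The control portion waited on ice, whereas the laser portion was spread over small tubes, irradiated and pooled again, so light and handling cannot be told apart.

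Yeast takes up zinc through Zrt1, a high-affinity transporter of the cell surface, and Zrt2, its low-affinity partner. Surplus zinc is carried into the vacuole by Zrc1 and Cot1 and is let out again by Zrt3. Zap1 is the activator that senses low zinc and switches on the uptake genes, *ZRT3*, *ZRC1* and its own gene through a short element in their promoters. The Izh proteins are membrane proteins of the family that includes the human adiponectin receptors. Their genes respond to zinc status, and *IZH2* and *IZH4* also to fatty acids.

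Zap1 elements are shown first because they split the 10 genes into those with and those without a match to the element of Zap1. The element was searched on both strands as ACCTT and AAGGT separated by 1 base, in the 500 bases before each start codon of the R64 assembly. With at most 1 mismatch it occurred before 6 of the 10 genes, against 1.96% of 6019 promoters, and an exact copy stood only before *ZRT1* among the 10, against 0.15% of promoters. In the lines that follow, each site is printed on the strand of its gene, with the 11 bases of the element in capitals and the flanking bases in lower case.
ZRT1, exact, chrVII:20774-20784, plus strand: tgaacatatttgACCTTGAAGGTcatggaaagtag
ZRT2, 1 mismatch, chrXII:404363-404373, minus strand: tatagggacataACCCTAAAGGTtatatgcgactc
ZRT3, 1 mismatch, chrXI:118638-118648, plus strand: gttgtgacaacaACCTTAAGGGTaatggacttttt
ZAP1, 1 mismatch, chrX:333207-333217, minus strand: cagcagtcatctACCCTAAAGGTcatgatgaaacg
ZRC1, 1 mismatch, chrXIII:756330-756340, minus strand: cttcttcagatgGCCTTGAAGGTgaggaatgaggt
IZH1, 1 mismatch, chrIV:1434507-1434517, plus strand: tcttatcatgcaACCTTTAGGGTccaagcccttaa
*ZRT1* and *ZRT2* each held a further site with 1 mismatch. No such match was found before *COT1*, *IZH2*, *IZH3* or *IZH4*. The stress element AGGGG, present in 34.0% of promoters, and the iron regulon element TGCACCC, present in 2.33%, had no copy before any of the 10 genes. Both were searched as these exact letters only, so other forms of either element were not covered.

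The upstream regions of *IZH4* (chrXV:126982-127920, minus strand) and *IZH2* (chrXV:323411-324364, minus strand) are printed because their transcripts moved most alike in the values that follow. Each window runs from 300 to 101 bases before the start codon. Capitals mark a match with at most 1 mismatch to ACTCAACAA, the low-oxygen element known from *OLE1*, the fatty acid desaturase gene. This element was chosen for the search after the expression values had been seen.
IZH4, chrXV:128021-128220, minus strand: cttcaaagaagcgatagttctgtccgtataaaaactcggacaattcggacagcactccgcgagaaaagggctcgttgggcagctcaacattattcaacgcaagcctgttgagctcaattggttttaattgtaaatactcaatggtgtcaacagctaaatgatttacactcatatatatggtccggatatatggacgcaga
IZH2, chrXV:324465-324664, minus strand: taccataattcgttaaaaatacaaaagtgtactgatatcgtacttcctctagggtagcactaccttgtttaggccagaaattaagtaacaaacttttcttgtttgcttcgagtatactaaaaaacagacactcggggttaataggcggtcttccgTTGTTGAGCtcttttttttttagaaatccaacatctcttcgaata
OLE1, exact low-oxygen element with flanks, chrVII:398285-398293, plus strand: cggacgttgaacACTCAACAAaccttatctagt
Of the 10 genes only *IZH2* held such a match in 500 bases, where 15.3% of all promoters hold one and 0.382% hold an exact copy. The *IZH4* window shows no capitals, which says only that these letters are not there.

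Depth and labels were checked once for the series. The depth recovered from RPKM steps was 2579000 to 5394500 reads per library. On that scale a transcript of the 10 genes was counted by 25.8 to 1731.2 reads, so that counting error was largest for *IZH4* and *ZAP1*. Reads summed over matched genes exceeded this depth in every library, as in Laser T60 replicate 1, with 5715822 against 4307000. The depth is thus a divisor that may not count all reads, and the reason was not tested. *STE2*, the α-factor receptor of MATa cells, stood between 201.8 and 916 RPKM, and *LEU2* and *URA3* sat at 0.021 RPKM, the value of a gene without reads, in all 24 libraries. *HIS3*, also listed with a deletion, had reads in all 24 libraries, at 105.8 to 168 RPKM. *MET15* was not looked up in this check. RPKM divides the reads of a gene by its length and by a read total of the library, so levels of different genes can be set side by side. At T60 a single library mattered for the counts over all genes: without laser replicate 1 the number of genes called went to 124, against 14 with it.

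The members covered a wide range of levels. In control cells at T0 *IZH1* was the most abundant, at 340 ± 43.3 RPKM, followed by *ZRC1* at 168 ± 16.3 RPKM (mean ± SD, n = 3 here and in all that follows). *IZH2*, *IZH3*, *ZRT3*, *ZRT2* and *COT1* came next, between 136 ± 13.7 and 88.1 ± 16.5 RPKM, and the libraries of each of these overlapped with those of its neighbour in the order. *IZH4* at 47.4 ± 11.2 RPKM and *ZRT1* at 43.9 ± 7.22 RPKM also overlapped, and *ZAP1* was the lowest at 24.1 ± 6.64 RPKM. Over all 24 libraries *IZH4* varied most, with its highest value 8.39 times its lowest, and *ZRT2* least, with 1.71 times.

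**Figure D1:**
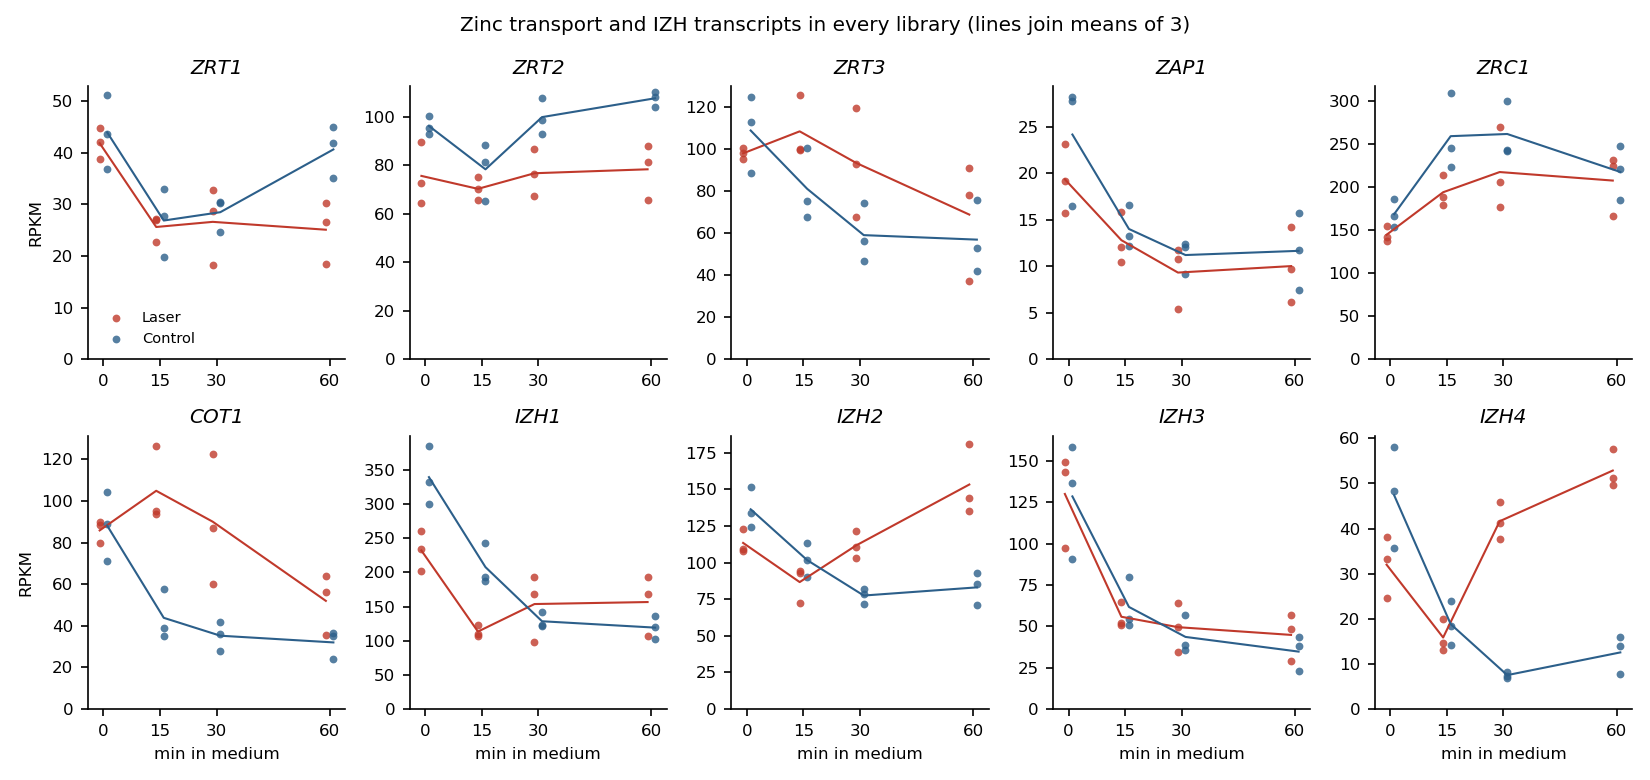
RPKM of the 10 transcripts against minutes in medium, with 1 point per library and lines through the means of 3 libraries (laser red, drawn slightly left of control in blue). *COT1* separates at 15 and 30 min and *IZH4* at 30 and 60 min, where the laser libraries lie between 37.8 and 57.7 RPKM and the control libraries between 6.91 and 15.9 RPKM.

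Each time was tested by limma on log2(RPKM + 1), and a call needed an adjusted p (Benjamini-Hochberg) under 0.05 together with a change of at least 2-fold. Fold changes on this scale understate the change of low transcripts. At T0 0 of the 10 genes were called, where 0.017% of all tested genes were, and 1 gene, *IZH1*, had an unadjusted p under 0.05. Equal replicate numbers were taken to mean the same culture here and below, which the labels do not state. The fit that pairs laser and control portions by culture also called 0 of the 10 at T0, with 0.544% of all genes called. At T15 1 of the 10 was called higher (*COT1*) and none lower, against a background of 12.3% higher and 0.815% lower. At T30 2 of the 10 were called higher (*COT1* and *IZH4*), against 10.6% of all genes, and at T60 1 of the 10 (*IZH4*), against 0.187%. None was called lower at T30 or T60, where 1.23% and 0.051% of all genes were. The median log2 fold change of the 10 genes was -0.24, -0.14, 0.18 and 0.29 at T0, T15, T30 and T60, beside medians of all genes of 0.01, 0.29, 0.15 and 0.11.

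The scaling of the tables bears on these directions. Rescaling each library by its median ratio brought the medians of all genes to between -0.03 and 0.01, and the split of calls at T15 from 725 higher and 48 lower to 383 higher and 198 lower. It changed the split to 474 higher and 119 lower at T30, against 621 and 72 as deposited, and to 28 higher and 18 lower at T60, against 11 and 3. Values are given as deposited, and calls among the 10 genes that changed with rescaling are named.

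**Figure D2:**
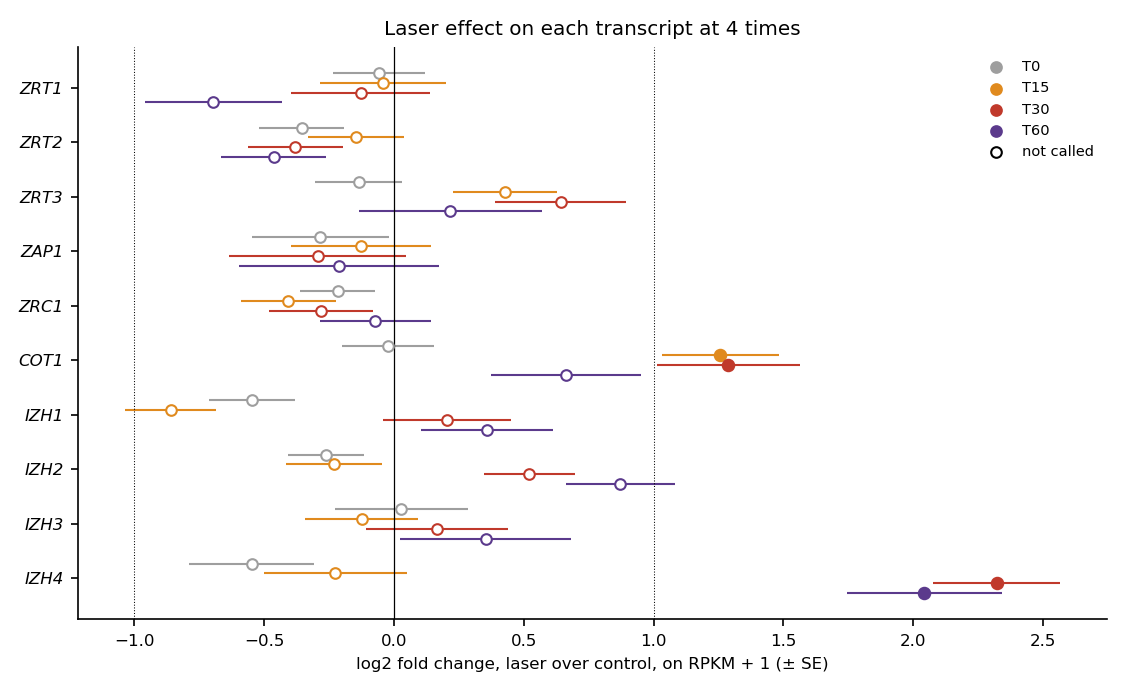
Log2 fold change of laser over control on RPKM + 1 for each transcript, with bars of 1 standard error and times from T0 (top of each row) to T60 (bottom). Filled points passed both thresholds: *COT1* at T15 and T30, with 1.26 and 1.29, and *IZH4* at T30 and T60, with 2.32 and 2.04. Dotted lines mark 2-fold.

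Neither of the uptake transporters was called at any time. *ZRT1* had 18.4, 26.5 and 30.3 RPKM in the laser libraries at T60, against 35.1, 41.8 and 44.9 RPKM in the control libraries. All laser libraries lay below all control libraries there, with a log2 fold change of -0.70 ± 0.26 (SE) and an adjusted p of 0.463 (limma). At the other times the *ZRT1* libraries of laser and control cells overlapped, with log2 fold changes between -0.13 and -0.04. *ZRT2* had 65.7, 81.4 and 87.8 RPKM in laser cells at T60, against 104, 108 and 110 RPKM in control cells. The *ZRT2* groups did not overlap at T0, T30 or T60, with laser means at 0.786, 0.768 and 0.728 of the control means. Its smallest adjusted p in this fit was 0.204 (limma, T30). With the culture as a block the adjusted p at T60 was 0.00305 for *ZRT1* and 0.0264 for *ZRT2*. Rescaled libraries gave 0.0393 for *ZRT1* at T60, and 0.0443, 0.0121 and 0.148 for *ZRT2* at T15, T30 and T60. All of these changes stayed short of 2-fold.

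The courses of the uptake genes over time held no call either. In laser cells the *ZRT1* mean was 41.8 RPKM at T0, 25.6 RPKM at T15, 26.6 RPKM at T30 and 25.1 RPKM at T60, and in control cells it was 43.9, 26.8, 28.5 and 40.6 RPKM at these times. The step from T0 to T15 was -0.69 on the log2 scale in laser cells (adjusted p = 0.0515) and in control cells -0.71 on the log2 scale (adjusted p = 0.0241, limma over all 24 libraries), short of 2-fold. The difference in the last step between laser and control cells was -0.57 ± 0.32 (SE, adjusted p = 0.540), which was not a call. *ZRT2* kept within 64.5 and 110 RPKM throughout, and none of its steps was called.

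*COT1* (chrXV:906236-907555, minus strand), a vacuolar zinc importer named for cobalt tolerance, was the transporter with a called laser effect. At T15 its laser libraries had 95.0, 93.5 and 126 RPKM, against 38.8, 35.2 and 57.5 RPKM in control cells. No library overlapped, and the ratio within cultures 1, 2 and 3 was 2.45, 2.66 and 2.19. The log2 fold change was 1.26 ± 0.22 (SE, adjusted p = 0.00223, limma), the 450th highest of 5887 tested genes. With rescaled libraries it was 0.94 (adjusted p = 0.00404), which falls short of 2-fold. As RNA came from whole cultures, a change in part of the cells and a smaller change in all of them cannot be told apart.

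At T30 *COT1* stood at 60.2, 87.2 and 123 RPKM in laser cells, against 36.1, 27.8 and 41.8 RPKM in control cells. The lowest laser library, replicate 1, was still above the highest control library. The log2 fold change was 1.29 ± 0.27 (SE, adjusted p = 0.00886, limma), and 1.55 without that library. With no filter on low genes its adjusted p was 0.0636. At T60 the values were 35.7, 56.2 and 64.1 RPKM in laser cells, against 24.1, 36.7 and 35.3 RPKM in control cells. Those groups overlapped by 1 library, and the log2 fold change of 0.66 was not called (adjusted p = 0.582). Its adjusted p was 0.00298 with the culture as a block, still short of 2-fold, and 0.184 with rescaled libraries.

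The laser effect on *COT1* came with different courses in laser and control cells. Laser cells stood at 119% of the T0 control mean at T15, at 102% at T30 and at 59.0% at T60, and none of these steps was called. Control cells fell by 1.01 on the log2 scale between T0 and T15 (adjusted p = 0.00705), to 49.8% of their T0 mean, and stood at 36.3% of it at T60. From T0 to T15 the laser effect itself changed by 1.28 ± 0.37 (SE, adjusted p = 0.0492), where 3.95% of all genes were called higher. It missed the threshold without culture 2 (1.15, adjusted p = 0.792) or culture 3 (1.25, adjusted p = 0.116), and with a pseudocount of 0.1 (adjusted p = 0.0519). *COT1* also belongs to the iron regulon of Aft1, of which 17 of 26 other genes passed higher at T15 and 16 of 25 did so at T30. Over all genes 12.3% and 10.6% were called higher. With rescaled libraries the medians of that list were 0.75 and 0.87, and several of its calls fell short of 2-fold. A link to the *COT1* change was not tested.

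*ZRC1*, the gene of the other vacuolar importer, was not called at any time. At T15 it had 188, 179 and 214 RPKM in laser cells, against 245, 223 and 309 RPKM in control cells. All laser libraries were lower, yet the log2 fold change of -0.41 ± 0.18 (SE) was not called (adjusted p = 0.120, limma). The culture as a block gave an adjusted p of 0.00813, and rescaled libraries gave -0.73 (adjusted p = 0.00548), both short of 2-fold. The *ZRC1* step from T0 to T15 was 0.42 on the log2 scale in laser cells (adjusted p = 0.143) and 0.61 in control cells (adjusted p = 0.0144), both short of 2-fold. At T60 the means were 207 ± 35.7 RPKM in laser cells and 217 ± 31.6 RPKM in control cells, and the libraries overlapped.

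*ZRT3*, which moves zinc out of the vacuole, had higher means in laser cells at T15 and T30 without a call. It had 99.7, 100 and 126 RPKM in laser cells at T15, against 67.7, 75.2 and 101 RPKM in control cells. At T30 it had 67.9, 93.2 and 120 RPKM in laser cells, against 46.7, 56.2 and 74.6 RPKM in control cells. Laser cells were higher in all 3 cultures at both times, the groups overlapped, and the log2 fold changes were 0.43 (adjusted p = 0.133) and 0.64 (adjusted p = 0.120, limma). With the culture as a block the adjusted p was 0.00858 at T15 and 0.00444 at T30, still short of 2-fold. Rescaled libraries gave 0.10 (adjusted p = 0.582) and 0.46 (adjusted p = 0.0937). Across the 24 libraries the Pearson correlation of *ZRT3* with *COT1* was 0.88. The libraries share cultures, times and scaling, so this describes the libraries only.

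*ZAP1*, the zinc regulator, showed no call in any laser comparison. It had 5.43, 10.8 and 11.8 RPKM in laser cells at T30, against 9.17, 12.1 and 12.4 RPKM in control cells, and its log2 fold changes lay between -0.29 and -0.13 at the 4 times. The *ZAP1* mean was 19.3 RPKM at T0 and 9.31 RPKM at T30 in laser cells, and 24.1 RPKM at T0 and 11.2 RPKM at T30 in control cells. None of its steps between neighbouring times passed the test, with an adjusted p of 0.296 for T0 to T15 in laser cells and 0.0930 in control cells.

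*IZH4*, a gene of the Izh family that responds to fatty acids and to zinc levels, carried the largest laser effect of the 10 genes. At T30 its laser libraries had 45.8, 37.8 and 41.3 RPKM, against 8.32, 6.91 and 7.35 RPKM in control cells. The laser portion was 5.51, 5.46 and 5.62 times the control portion in cultures 1, 2 and 3, a near equal ratio in each. The log2 fold change was 2.32 ± 0.24 (SE, adjusted p = 1.72e-04, limma), the 86th highest of 5871 genes, and it was called under every setting tried, between 2.14 and 2.45.

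At T60 *IZH4* remained high, with 51.2, 57.7 and 49.7 RPKM in laser cells, against 15.9, 14.1 and 7.73 RPKM in control cells. The groups were far apart, with a log2 fold change of 2.04 ± 0.30 (SE, adjusted p = 0.0234, limma), the 19th highest of 5877 genes. This call depended on the setting: the adjusted p was 0.130 with no filter, 0.0582 with rescaled libraries, and 0.132, 0.141 and 0.0546 without control replicate 2, laser replicate 2 or laser replicate 3. The log2 fold change lay between 1.75 and 2.23 under all settings tried. Without laser replicate 1, the library that moved the counts over all genes, it was 2.06 (adjusted p = 0.00485).

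*IZH4* was not called at T0 or T15. At T0 it had 33.2, 24.7 and 38.1 RPKM in laser cells, against 58.0, 35.8 and 48.4 RPKM in control cells, and at T15 19.9, 14.6 and 13.1 RPKM, against 14.1, 23.9 and 18.5 RPKM. The groups overlapped at both times. Between T0 and T15 the step was -0.97 on the log2 scale in laser cells (adjusted p = 0.0132, just short of 2-fold), and control cells fell by 1.29 (adjusted p = 7.15e-04). Laser cells then rose by 1.35 between T15 and T30 (adjusted p = 0.00456), to 87.8% of the T0 control mean, and stood at 112% of it at T60. Control cells fell by a further 1.19 between T15 and T30 (adjusted p = 0.00562), to 15.9% of their T0 mean. From T15 to T30 the laser effect itself changed by 2.55 ± 0.36 (SE, adjusted p = 3.70e-04), the 16th highest value of 6146 genes, where 0.195% of genes were called higher. It was not called without culture 2 (2.34, adjusted p = 0.254).

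*IZH2*, whose protein is the best studied of the family and whose gene is induced by fatty acids, had higher means in laser cells at T30 and T60 without a call. It had 103, 111 and 121 RPKM in laser cells at T30, against 82.2, 78.3 and 72.1 RPKM in control cells. At T60 it had 181, 144 and 135 RPKM in laser cells, against 92.6, 85.4 and 71.4 RPKM in control cells. The groups were apart at both times. The log2 fold changes were 0.52 (adjusted p = 0.0687) and 0.87 (adjusted p = 0.170, limma), and neither was called. With the culture as a block the adjusted p was 0.0173 at T30 and 1.92e-06 at T60, still short of 2-fold. With rescaled libraries it was 0.142 and 0.361.

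*IZH1*, the most abundant of the family, was lower in laser cells at T15, by less than 2-fold. At T0 it had 202, 261 and 234 RPKM in laser cells, against 299.8, 333 and 386 RPKM in control cells, and its log2 fold change of -0.55 did not pass (adjusted p = 0.659, limma). At T15 it had 109, 107 and 124 RPKM in laser cells, against 194, 187 and 242 RPKM in control cells. Every laser library was lower than every control library at both times. The log2 fold change at T15 was -0.86 ± 0.18 (SE, adjusted p = 0.00487), short of 2-fold, and -1.19 (adjusted p = 0.00101) with rescaled libraries, which is a call. At T30 and T60 the groups overlapped, at 154 ± 49.4 and 157 ± 44.4 RPKM in laser cells and 129 ± 11.5 and 119 ± 16.9 RPKM in control cells. The laser effect changed by 1.06 between T15 and T30 (adjusted p = 0.244), and this difference was called in the fit with the culture as a block (adjusted p = 0.00839), with rescaled libraries (1.15, adjusted p = 5.06e-04) and without culture 1 (1.34, adjusted p = 0.0338).

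*IZH3* fell over time in both portions and was not called between them. Laser cells fell between T0 and T15 by 1.19 on the log2 scale (adjusted p = 0.00982) and control cells by 1.04 (adjusted p = 0.0125). The means at T60 were 44.8 ± 14.4 RPKM in laser cells and 34.7 ± 10.6 RPKM in control cells, against 130.0 ± 28.5 and 128 ± 34.6 RPKM at T0. Its laser log2 fold changes lay between -0.12 and 0.35. No member was called between T30 and T60 in either portion, where 6.13% of all genes were called in laser cells and 0.797% in control cells, and 2 members in each portion had an unadjusted p under 0.05.

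Within laser and within control cells all calls among the 10 genes between T0 and T15 were declines. In laser cells 2 of the 10 were called lower between T0 and T15 (*IZH1*, by 1.02, and *IZH3*), against 4.26% of all genes, and in control cells 3 of the 10 (*COT1*, *IZH3* and *IZH4*), against 12.1%. With rescaled libraries none of these 3 control steps reached 2-fold (-0.68 for *COT1*, -0.70 for *IZH3* and -0.96 for *IZH4*), nor did *IZH1* in laser cells (-0.97). Without culture 2 the counts were 0 in laser cells and 1 in control cells. *IZH4* in laser cells was also called without culture 1 (-1.10) and with a pseudocount of 0.1 (-1.01). Between T15 and T30 *IZH4* was the only member called, higher in laser cells, where 0.26% of all genes were called higher, and lower in control cells, where 2.34% were called lower. Both of these *IZH4* calls were lost without culture 2 or culture 3, with adjusted p of 0.349 and 0.0695 in laser cells and 0.491 and 0.0521 in control cells.

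Replicates differed in the level of the 10 genes alongside these effects. Replicate 1 was the lowest laser library for 9 of the 10 genes at T30 and 8 of the 10 at T60, and the lowest control library for 4 of the 10 at T30 and 8 of the 10 at T60. *IZH4* in laser cells at T30 was the exception, with its highest value in replicate 1. The same count was not made over all genes, so it describes the 10 genes only. The part of this difference between replicates in the results was not tested beyond the fits without replicate 1.

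The genes most like the called members over the 24 libraries were named by a fixed rule, the 3 highest Pearson correlations on log2(RPKM + 1) among 6145 genes. For *IZH4* they were *IZH2* (r = 0.89), *OLE1* (r = 0.88) and *HES1*, a gene of the oxysterol-binding protein family (r = 0.77). For *COT1* they were *UBX7*, which encodes a Cdc48 cofactor (r = 0.97), *SNX4*, a sorting nexin gene (r = 0.97), and *NPR1*, a kinase gene that controls permeases (r = 0.97). All points share libraries, cultures and times, and the correlations describe them without a test. Among the 45 pairs of members *IZH2* with *IZH4* was the highest, and *ZRC1* with *IZH4* the lowest (r = -0.49).

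*OLE1* had a course like that of *IZH4*. At T30 it had 622, 826 and 918 RPKM in laser cells, against 320.0, 302 and 284 RPKM in control cells, which is 1.37 on the log2 scale (adjusted p = 0.00102, limma). At T15 it had 397, 312 and 378 RPKM in laser cells, against 524, 490.4 and 716 RPKM in control cells, which is lower in every laser library (-0.66, adjusted p = 0.0339, short of 2-fold). At T60 the log2 fold change of 1.20 was not called (adjusted p = 0.125), but was in the fit with the culture as a block (adjusted p = 6.32e-12). *MGA2* and *SPT23*, which encode the membrane-bound activators of *OLE1*, lie outside the naming rule, chosen with their values known, and were not called at any time, with 0.64 and -0.09 at T30. The *HES1* levels were low throughout, at 4.71 ± 1.61 RPKM in laser cells and 1.57 ± 0.15 RPKM in control cells at T60.

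**Figure D3:**
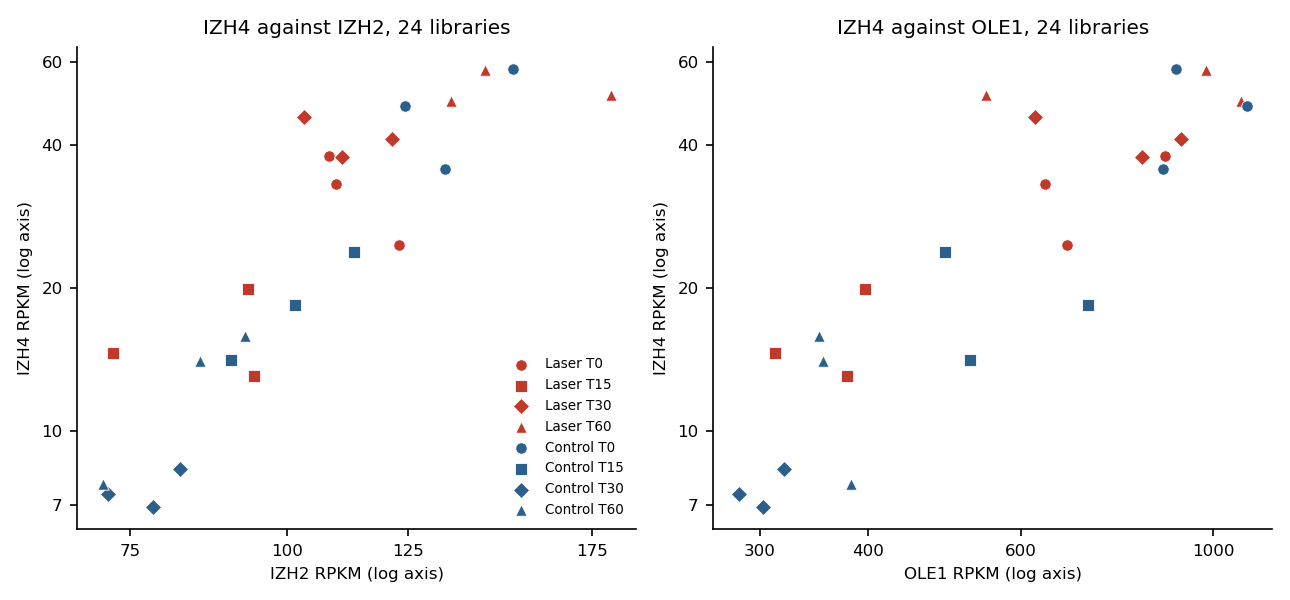
IZH4 RPKM against IZH2 RPKM (left) and OLE1 RPKM (right) in the 24 libraries on log axes, with laser libraries in red, control libraries in blue and a symbol for each time. Laser libraries at T30 and T60 lie toward the upper right, at 37.8 to 57.7 RPKM of *IZH4*, and control libraries at T30 at the lower left, at 6.91 to 8.32 RPKM.

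The 6 genes with a Zap1 element and the 4 without one were set side by side as a description. Of the 6 with an element none was called in laser against control at any time, and their log2 fold changes at T30 ran from -0.38 to 0.64 with a median of -0.20. Of the 4 without one, *COT1* and *IZH4* account for all 4 calls, and the log2 fold changes at T30 ran from 0.17 to 2.32 with a median of 0.90. At T15 the medians were -0.14 with an element and -0.17 without one, and rescaled libraries turned the calls round, with *IZH1* called lower (-1.19) and *COT1* not called (0.94). No test was made between these small sets.

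Other zinc genes were called in both directions at T15 and T30. Of 6 further zinc transport genes, *FET4*, a low-affinity iron and zinc transporter, was called at T15, with 23.7, 17.0 and 17.3 RPKM in laser cells, against 46.2, 41.7 and 39.4 RPKM in control cells (-1.11, adjusted p = 0.00405, limma). No gene of the 6 was called at T0, T30 or T60, except that the fit with the culture as a block called *PHO84*, a phosphate transporter gene chosen with its values known, lower at T0, just past 2-fold (adjusted p = 0.0324, against 0.358 without the block). Of 29 tested Zap1 targets outside the members 5 were higher and 1 lower at T15, and 4 higher and 2 lower at T30. The medians of these 29 were 0.31 and 0.17, beside 0.29 and 0.15 over all genes. This list shares genes with the 6 transport genes, and its lower call at T15 is again *FET4*. Over all genes 12.3% were called higher and 0.815% lower at T15, and 10.6% and 1.23% at T30. With rescaled libraries 4 of the 5 higher calls at T15 were lost (all but *TSA1*), and 1 of the 4 at T30 (*TSA1*). At T60 the log2 fold change was above 0 for 6 of the 6 transport genes and 23 of the 29 targets, beside 66.7% of all genes, and none was called, whereas the block called *GPG1* (1.27, adjusted p = 3.56e-06). The targets with the smallest adjusted p at T15 were *MUP1*, a methionine permease gene (1.22), *FET4*, *GPG1*, a proposed G protein subunit gene (1.18), and *TSA1*, a peroxiredoxin gene (1.37). At T30 they were *GPG1* (2.92), *URA10* of pyrimidine synthesis (1.88), *TKL2*, a transketolase gene (1.95), and *SAM3*, a permease gene (-1.25). *ADH4* and *ZPS1*, Zap1 targets commonly used as signs of low zinc, were outside the naming rule and were looked up after the values were seen: neither was called, with -0.29 and -0.05 at T15 and -0.44 and -0.04 at T30.

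Zinc-dependent enzymes were called in both directions. Of 15 such genes 4 were higher at T15 and 4 higher and 1 lower at T30, beside the same shares of all genes (12.3% higher at T15, 10.6% higher and 1.23% lower at T30). *NCE103*, the carbonic anhydrase gene, had 845, 1131 and 1369 RPKM in laser cells at T15, against 172, 196 and 179 RPKM in control cells (2.58, adjusted p = 1.84e-05, limma). At T0 its means were 3411 RPKM in laser cells and 4617 RPKM in control cells, so its level was lower at T15 in both portions. *APE1*, a vacuolar aminopeptidase gene (1.80), *MET6* of methionine synthesis (1.48) and *ADH6*, an alcohol dehydrogenase gene (1.37), were also called at T15. *MET6* went the other way at T30, with 43.7, 68.5 and 77.5 RPKM in laser cells, against 223, 229 and 239 RPKM in control cells (-1.89, adjusted p = 3.45e-04). The *MET6* mean at T15, T30 and T60 was 46.6, 230 and 109 RPKM in control cells. In laser cells it was 133, 63.2 and 166 RPKM. *NCE103*, *APE1* and *ADH6* remained higher at T30, with 1.84, 2.13 and 1.13, the last of which fell short of 2-fold with rescaled libraries (0.94). The remaining higher call at T30, *SOD1*, lies outside the naming rule and is named with its values known. It was also lost with rescaled libraries (1.11 as deposited, 0.92 rescaled).

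Lists outside zinc give the scale of the response, beside 12.3% of all genes called higher at T15 and 10.6% at T30. Of 16 general stress genes 11 passed higher at T15 and 13 passed at T30, with medians of 1.33 and 1.94, and the smallest adjusted p belonged to small heat shock protein genes, *HSP42* at T15 (3.78) and *HSP26* at T30 (2.92). In the iron regulon the medians were 1.07 and 1.05, and *LSO1*, a gene induced in iron-poor cells, had the largest value (5.53 at T15 and 6.22 at T30). Of 10 tested fatty acid genes 1 was called at T15 (*POT1*, 1.48) and 3 at T30 (*OLE1*, *POT1* at 2.16 and *FOX2* at 1.42), *POT1* and *FOX2* being genes of fatty acid breakdown.

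**Figure D4:**
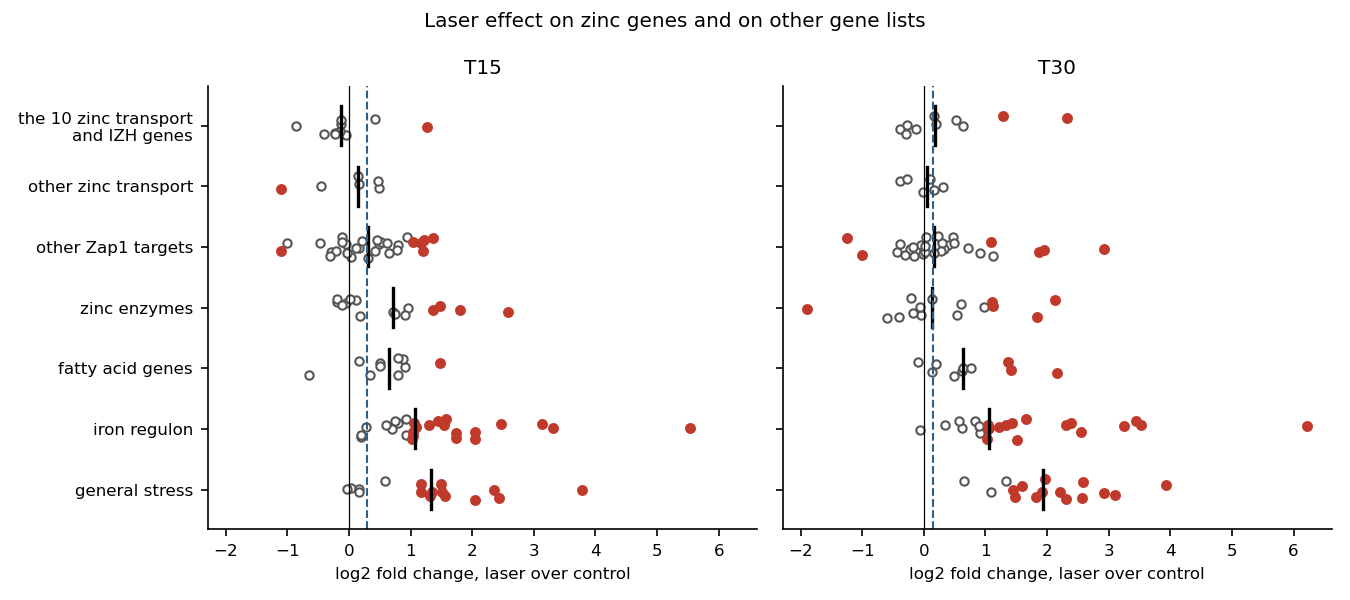
Log2 fold change of laser over control for the 10 genes and 6 other lists at T15 (left) and T30 (right), with 1 point per gene, filled where called. The black bar is the median of a list and the dashed line the median of all tested genes (0.29 and 0.15). The medians of the 10 genes are -0.14 and 0.18, and those of the general stress genes 1.33 and 1.94.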

How the data were processed

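The authors made libraries with a stranded poly(A) kit (TruSeq Stranded mRNA), placed reads on the S288C genome in SeqMan NGen and computed expression in ArrayStar. The deposited RPKM values of each library, in 4 tables of 1 time point each, were used. The deposited fold changes and p-values are the authors' own comparisons and were not used. How strand entered the counting, and the annotation release, are not given in the sources used here, and no annotated gene overlaps any of the 10 in R64. Depth was recovered from RPKM steps of low genes, where 92.05% to 96.3% of the low values were whole reads to within 0.08 (16% by chance). Names of 6109 genes, with all 10 members, matched R64 (RefSeq), which gave positions and sequence.

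At each time laser and control libraries were compared with limma 3.58.1 (R 4.3.3, variance trend) on log2(RPKM + 1), keeping genes that reached 1 RPKM in 3 or more of the 6 libraries. Changes over time and of the laser effect came from 1 fit of all 24 libraries. Calls needed an adjusted p (Benjamini-Hochberg) under 0.05 and a 2-fold change. The test was run on simulated data with independent libraries. As the real libraries share cultures, that run does not cover the sharing. Alternatives were a pseudocount of 0.1, no filter, an RPKM filter of 5, median-ratio rescaling, the culture as a block, 1 fit of all libraries and leaving out each library or culture. The block with rescaling was added after seeing the data.

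By the study's methods each culture was divided. Equal replicate numbers were read as portions of the same culture, which the labels do not state. The 12 correlations of deviations of same-numbered libraries ran from -0.03 to 0.53, and the highest of other numbers was 0.31. Of the 12, 9 exceeded 0.1, so the pairing is not shown for every number and time. Under this reading all libraries of 1 number share a culture, and p-values without the block treat them as separate. The 10 genes and all lists were chosen with earlier results of these data known. Named genes are the 10, up to 4 called genes per list and time with the smallest adjusted p, and the 3 genes most like each called member, beside those the text marks as chosen with values known. Plots were drawn in Matplotlib 3.10.9 from tables made with pandas 2.3.3 and NumPy 2.4.6 under Python 3.11.15.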

Additional observations from a re-analysis of the deposited data

Results flagged for a closer look

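A pair of laser effects differed between consecutive times by the interaction term of the fit of all 24 libraries (limma). The laser effect on *COT1* was 1.28 higher on the log2 scale at T15 than at T0 (adjusted p = 0.0492), where 3.95% of all genes were called in this direction. The laser effect on *IZH4* was 2.55 higher at T30 than at T15 (adjusted p = 3.70e-04), where 0.195% of all genes were.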

How the results depend on the processing

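For the 10 genes 1150 combinations of gene, comparison and alternative were computed. Of these 1117 kept their side of the threshold, 26 lost a call and 7 gained one. No value called in either of the fits compared changed direction. The direction of values called in neither was not compared: *IZH3* at T30 went from 0.17 to -0.02 with rescaled libraries. Pairing by culture (replicate block) changed no call of laser against control in 40 of 40 values, and over all comparisons 1 of 130, the *IZH1* change between T15 and T30. It did bring the adjusted p under 0.05 for several changes that stayed short of 2-fold, among them *IZH2* at T60 (1.92e-06 against 0.170). Genes called at T0 were 1, against 32 with the replicate block, 16 with all libraries in 1 fit, 38 with block and rescaling, and 0 to 3 without 1 library. At T60 they were 14, against 184 with the replicate block, 76 with all libraries in 1 fit, 46 with rescaling, 107 with block and rescaling, and 5 to 124 without 1 library. The block at T60 left 2 residual degrees of freedom and borrowed 138.7 from the other genes, so its small p-values rest on a spread shared by all genes.

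With no filter on low values 1 of the 10 genes was called at T30 and 0 at T60, and rescaling gave 0 at T60. Leaving out 1 library gave 0 to 1 at T60. For the change of the laser effect between T0 and T15 the count was 0 with a pseudocount of 0.1 and 0 with no filter, and 0 to 1 without 1 culture. Between T15 and T30 it was 2 with rescaling, 2 with the replicate block, and 0 to 2 without 1 culture. In laser cells rescaling gave 1 for T0 to T15, and leaving out 1 culture gave 0 to 3 there, with 3 also at a pseudocount of 0.1, and 0 to 1 for T15 to T30. In control cells rescaling gave 0 for T0 to T15, and leaving out 1 culture gave 1 to 3 there and 0 to 1 for T15 to T30. The cause was not tested, beyond fewer samples where libraries were left out. Groups of 3 libraries limit what could be called, and *ZAP1* and *IZH4*, with the fewest reads, carry the most counting error.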
